A study of Mus musculus with 9 samples.

Results

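The 9 mouse genes of the minichromosome maintenance (MCM) helicase family, Mcm2 to Mcm10, were followed in serum-starved mouse embryonic fibroblasts with different forms of the retinoblastoma gene Rb1. They were chosen by gene symbol. Each is read by exactly 1 probe set, and they are 9 of the 19938 genes measured. The groups were Rb +/+ (WT), Rb ∆G/∆G (∆G) and Rb -/- (null), with 3 arrays each. The ∆G protein carries a mutation in the common site of contact with E2F transcription factors, and Rb -/- cells are homozygous for a null allele. All 9 cultures, WT included, were seeded at 3000000 cells per 15 cm dish and 24 h later given medium with 0.1% FBS, a serum level in which normal fibroblasts stop dividing. The series text calls the cells littermate pairs, but no label says which arrays share a litter or whether each array is a separate embryo. The tests therefore rest on the scatter among the 3 arrays of a group, some of which may be technical. Values are log2 signals of the Affymetrix Mouse Gene 1.0 ST array after RMA, which corrects background, equalises the arrays' distributions and summarises the probes of a gene. The array medians lay between 6.33 and 6.40.

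Mcm2 to Mcm7 encode the subunits of a ring that is loaded onto replication origins in G1 and, once activated with Cdc45 and the GINS complex, unwinds DNA ahead of the fork. Their genes are classical targets of E2F, which RB represses in resting cells. Mcm8 and Mcm9 belong to the same ATPase family but form a separate complex that acts in homologous recombination, and Mcm10 is an unrelated fork protein that helps to activate the loaded ring.

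The promoters of the members differed in matches to the letters that E2F proteins prefer. RefSeq promoters (assembly GRCm38.p6, 250 bases before to 50 after the annotated start) were at hand for 8 members, Mcm2, Mcm3, Mcm5, Mcm6, Mcm7, Mcm8, Mcm9 and Mcm10. The E2F letters searched were TTCCCGC and the variants with other inner letters, namely TTGGCGC as well as TTCGCGC and, finally, TTGCCGC, all on both strands, where overlapping matches form 1 stretch. Of the 5 replicative members with a promoter, 4 held such letters, each in at least 2 separate stretches. Over all 32851 promoters of the table, 9.57% held a match and 1.09% held 2 or more separate stretches. The 6 promoters printed here are those of replicative members with several matches (Mcm6, Mcm3 and Mcm7), of Mcm2, which had none, and of Mcm8 and Mcm10 for contrast. Each is written 5′ to 3′ on the gene's strand in lower case, with the E2F matches in capitals.
Mcm6 (chr1:128359656-128359955, minus strand): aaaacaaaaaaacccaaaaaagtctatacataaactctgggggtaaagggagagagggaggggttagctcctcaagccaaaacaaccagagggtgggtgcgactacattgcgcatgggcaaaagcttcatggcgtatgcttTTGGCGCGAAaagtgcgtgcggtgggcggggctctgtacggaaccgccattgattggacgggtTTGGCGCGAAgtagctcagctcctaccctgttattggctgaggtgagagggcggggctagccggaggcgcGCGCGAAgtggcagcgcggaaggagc
Mcm3 (chr1:20820263-20820562, minus strand): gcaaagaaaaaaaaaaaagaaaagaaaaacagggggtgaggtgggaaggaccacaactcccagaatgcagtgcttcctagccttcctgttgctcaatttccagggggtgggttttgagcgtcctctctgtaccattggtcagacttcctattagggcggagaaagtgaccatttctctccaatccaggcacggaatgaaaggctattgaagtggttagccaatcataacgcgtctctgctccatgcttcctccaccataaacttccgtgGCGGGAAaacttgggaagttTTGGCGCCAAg
Mcm7 (chr5:138171834-138172133, minus strand): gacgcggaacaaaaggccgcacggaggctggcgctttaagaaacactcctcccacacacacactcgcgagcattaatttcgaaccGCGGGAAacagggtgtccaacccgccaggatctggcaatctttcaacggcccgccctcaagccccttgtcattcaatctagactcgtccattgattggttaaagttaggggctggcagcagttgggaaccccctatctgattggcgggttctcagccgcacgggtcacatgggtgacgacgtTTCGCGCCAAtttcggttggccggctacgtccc
Mcm2 (chr6:88898731-88899030, minus strand): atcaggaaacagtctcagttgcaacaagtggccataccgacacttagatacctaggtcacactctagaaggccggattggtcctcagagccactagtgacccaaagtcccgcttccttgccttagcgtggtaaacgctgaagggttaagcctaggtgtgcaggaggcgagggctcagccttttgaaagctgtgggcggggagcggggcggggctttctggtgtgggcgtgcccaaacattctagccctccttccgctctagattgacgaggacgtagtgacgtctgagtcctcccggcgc
Mcm8 (chr2:132815891-132816190, plus strand): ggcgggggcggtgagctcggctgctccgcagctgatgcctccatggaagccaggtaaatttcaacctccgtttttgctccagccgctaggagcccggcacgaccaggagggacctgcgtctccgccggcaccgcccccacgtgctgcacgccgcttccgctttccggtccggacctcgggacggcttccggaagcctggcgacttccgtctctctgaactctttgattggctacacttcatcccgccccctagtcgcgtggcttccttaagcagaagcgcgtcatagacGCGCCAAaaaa
Mcm10 (chr2:5012742-5013041, minus strand): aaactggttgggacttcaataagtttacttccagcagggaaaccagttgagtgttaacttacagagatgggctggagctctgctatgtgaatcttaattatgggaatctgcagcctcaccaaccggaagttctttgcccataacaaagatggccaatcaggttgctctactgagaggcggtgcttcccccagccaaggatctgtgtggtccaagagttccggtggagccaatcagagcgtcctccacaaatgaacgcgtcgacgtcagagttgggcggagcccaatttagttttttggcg
Mcm6 had 3 stretches and Mcm3, Mcm5 and the first of the 2 listed Mcm7 starts had 2 each. The second Mcm7 start, like Mcm8, had 1. Mcm2, Mcm9 and Mcm10 had none, which says only that these letters are not in this window. The CCAAT box, searched as CCAAT on both strands, was present in all 8 members' promoters and in 37.4% of all promoters, and 1 CCAAT match of Mcm7 overlapped an E2F stretch. The CHR letters TTTGAA or TTTAAA, searched on both strands, were found in Mcm2 and Mcm5 and in 27.6% of all promoters. A match of letters describes the sequence and is not evidence of a bound site.

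**Figure D1:**
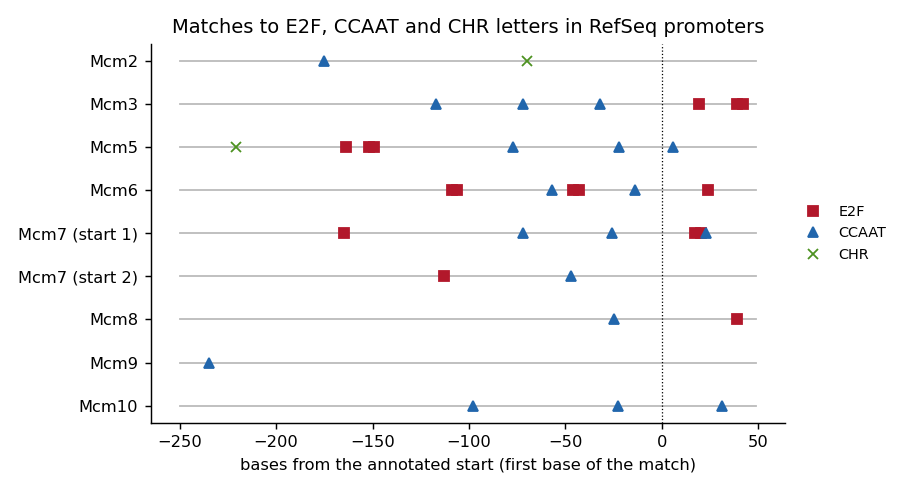
Positions of E2F (squares), CCAAT (triangles) and CHR (crosses) matches, as bases from the annotated start to the first base of the match, in the 9 RefSeq promoters of 8 members. Mcm6 has 3 separate E2F stretches and Mcm2, Mcm9 and Mcm10 have none.

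Checks of the arrays bear on every comparison. Rb1 itself read 8.93, 9.17 and 9.16 on WT replicates 1 to 3, 9.53, 9.76 and 9.54 on the ∆G arrays and 8.18, 8.58 and 8.19 on the null arrays. Which exons the null allele lacks is not stated, so the signal left there does not check the labels. The Y-linked gene Eif2s3y lay between 9.13 and 9.61 on all ∆G arrays and on WT replicates 1 and 2, and between 3.52 and 3.94 on all null arrays and on WT replicate 3, while Xist was high on the latter arrays alone. The sex pattern and the genotype therefore cannot be told apart between ∆G and null, and overlap in part against WT. The 10 fibroblast markers (such as Col1a1 and Pdgfra) had summed signals, on the log2 scale, of 15.06 to 15.46 in WT, 15.12 to 15.41 in ∆G and 14.57 to 15.03 in null. In null, 7 of 10 fell against WT and 5 of 10 against ∆G, where 10.1% and 4.44% of all genes fell, and none was called in ∆G against WT in limma (0 at an unadjusted p under 0.05). The sum of the 8 macrophage and leukocyte markers spanned 8.76 to 10.1 in WT, 9.24 to 11.04 in ∆G and 9.03 to 9.39 in null, with no gene called in any comparison in limma (1, 0 and 4 at an unadjusted p under 0.05 in ∆G against WT, null against WT and null against ∆G). The 6 epithelial and 5 endothelial markers held no called gene either (at most 1 at an unadjusted p under 0.05 in each), and Epcam and Pecam1 read at most 4.94 and 5.17. The brightest genes of these lists were Krt8, at 6.57 to 7.05, and Tek, at 6.36 to 7.40. Tek read higher on every null array than on every ∆G array (log2 difference 0.56, limma adjusted p = 0.12). On WT replicates 1 to 3 it read 6.65, 6.36 and 7.40, so it was highest on the arrays where Xist was high. The part of Tek in the results was not tested. In such bulk RNA a change in the share of a cell type and a change in RNA per cell cannot be told apart.

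**Figure D2:**
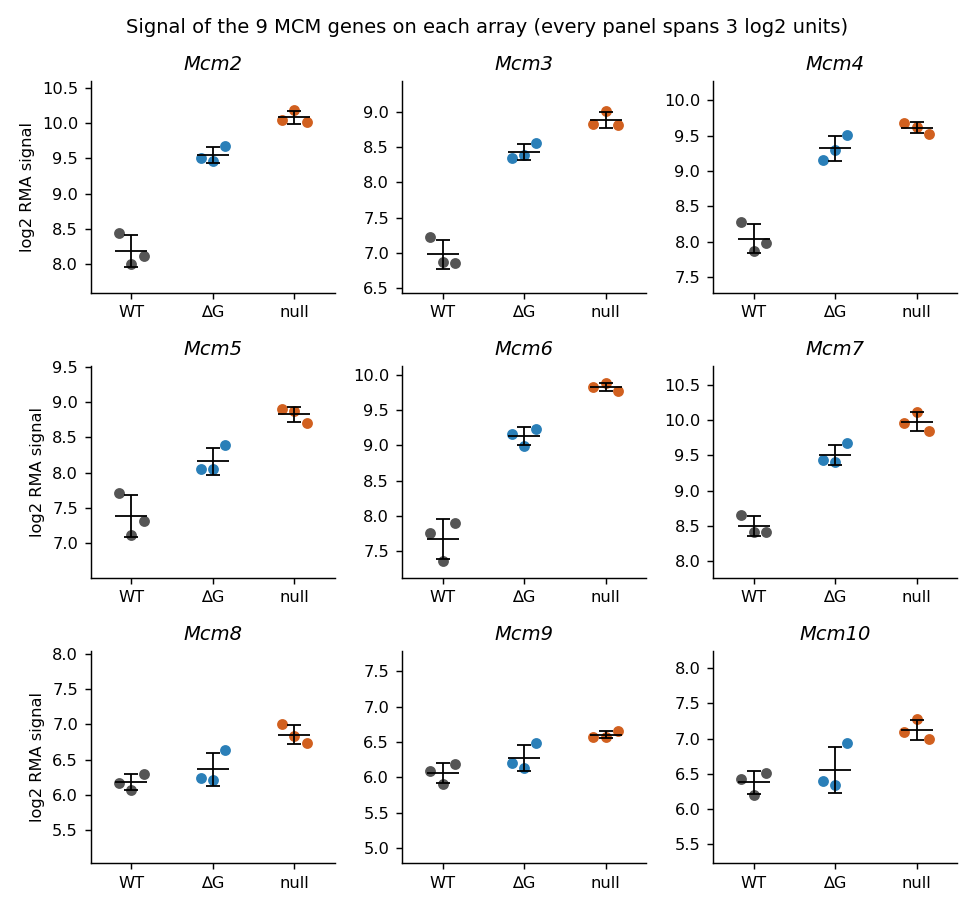
Log2 RMA signal of each MCM gene on every array (points, replicates 1 to 3 from left to right), with the mean and SD of each group of 3 as a bar with whiskers. For Mcm2 to Mcm7 the 3 groups are fully separated in the order WT, ∆G, null, while for Mcm8, Mcm9 and Mcm10 the WT and ∆G arrays overlap.

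The first comparison asked whether the mutant that cannot make the usual E2F contact still holds down the helicase genes in starved cells. All 6 genes of the replicative ring, Mcm2 to Mcm7, rose in ∆G, by 1.71-fold to 2.75-fold, while Mcm8, Mcm9 and Mcm10 did not pass the test. That is 6 of 9 members called higher and none lower, where 0.602% of all genes were called higher and 0.211% lower. The same 6 had every ∆G array above every WT array, as did 7.05% of all genes. The median log2 change of the 9 members was 1.01 and that of all genes was −0.018.

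Mcm6 read 7.76, 7.36 and 7.90 in WT and 9.17, 8.99 and 9.23 in ∆G, a log2 change of 1.46 (SE 0.12, limma adjusted p = 0.00069). Mcm3 read 7.22, 6.87 and 6.85 in WT and 8.34, 8.39 and 8.56 in ∆G, a change of 1.45 (SE 0.11, limma adjusted p = 0.00060). Every ∆G array stood more than 1 log2 unit above every WT array for both genes. Mcm2 read 8.44, 8.0 and 8.11 in WT and 9.51, 9.46 and 9.67 in ∆G, and Mcm4, whose product has its partner Mcm6 beside it in the ring, read 8.27, 7.87 and 7.98 against 9.16, 9.30 and 9.51. Their log2 changes were 1.36 and 1.28 (SE 0.11 for each, limma adjusted p = 0.00069 and 0.00080). WT replicate 1 was the highest WT array for both, and neither gene's groups overlapped.

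Mcm7 and Mcm5 changed least among the replicative genes. Mcm7 read 8.66, 8.41 and 8.42 in WT and 9.44, 9.40 and 9.67 in ∆G (log2 change 1.01, SE 0.10, limma adjusted p = 0.0016). Mcm5 read 7.72, 7.12 and 7.32 in WT and 8.04, 8.05 and 8.39 in ∆G (log2 change 0.78, SE 0.14, limma adjusted p = 0.035). The Mcm5 arrays of ∆G and WT did not overlap, with 8.04 the lowest in ∆G and 7.72 the highest in WT. Mcm5 lost its call in 11 of 19 alternatives, at log2 changes of 0.64 to 0.83. These included the omission of any one of WT replicates 2 and 3, the 3 ∆G arrays and null replicates 1 and 3 (adjusted p = 0.13, 0.098, 0.071, 0.086, 0.059, 0.066 and 0.052). Another, against only the WT arrays of the ∆G sex pattern, is the same fit as leaving out WT replicate 3. The other 5 genes kept their calls in all 19. Some of the 19, such as leaving out a null array or averaging a gene's probe sets, left the log2 changes unchanged. They could move only the SE and adjusted p. Of all 19938 genes, Mcm3, Mcm2 and Mcm6 ranked 1, 2 and 3 by the p of this comparison, Mcm4 ranked 5, Mcm7 ranked 8 and Mcm5 ranked 113.

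The 3 other members sat near their WT level on 2 of the 3 ∆G arrays. Mcm8 read 6.17, 6.07 and 6.29 in WT and 6.24, 6.21 and 6.64 in ∆G. Mcm9 read 6.09, 5.91 and 6.18 in WT and 6.2, 6.13 and 6.48 in ∆G. Mcm10 read 6.43, 6.2 and 6.51 in WT and 6.40, 6.34 and 6.94 in ∆G. In each gene ∆G replicate 3 alone stood clear of all WT arrays, apart from Mcm9, where replicate 1 also lay just above them. Their log2 changes were 0.19, 0.21 and 0.18, with 95% intervals of −0.07 to 0.45, −0.01 to 0.43 and −0.14 to 0.50 (limma adjusted p = 0.60, 0.46 and 0.72). These upper bounds lie below the lower bounds of Mcm2, Mcm3, Mcm4, Mcm6 and Mcm7, the least of which is 0.78, and that of Mcm10 lies above the lower bound of Mcm5, 0.46. The difference between members was not tested. Without ∆G replicate 3 the changes of Mcm8, Mcm9 and Mcm10 were 0.05, 0.11 and −0.0083.

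**Figure D3:**
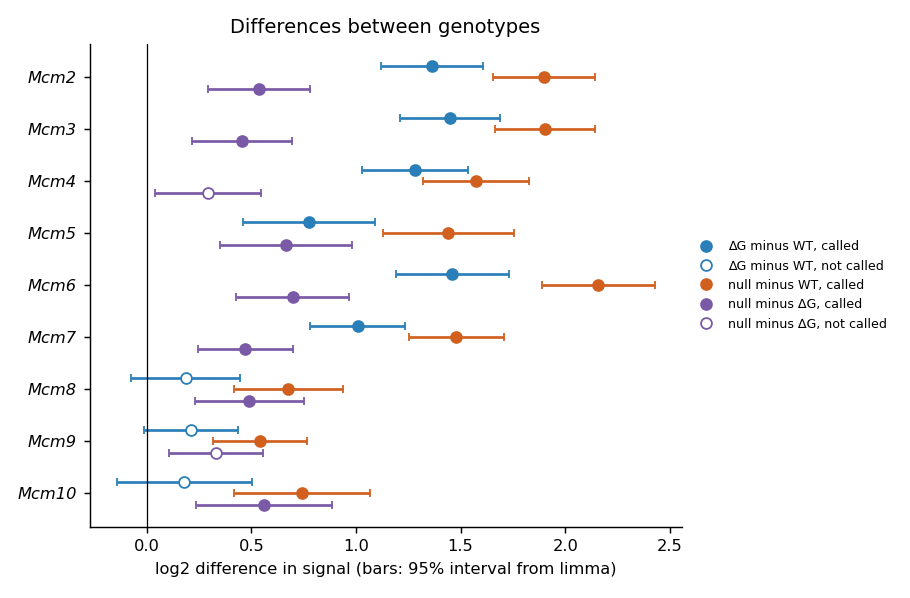
Log2 differences between genotypes for each member (points; filled where limma's adjusted p is under 0.05) with 95% intervals, from 3 arrays per genotype. Mcm2 to Mcm7 are filled against WT in both mutants, and Mcm8, Mcm9 and Mcm10 only in null.

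The second comparison set cells without functional RB against WT, and here the whole family rose. All 9 members were called higher, where 8.38% of all genes were, and all 9 had every null array above every WT array, as did 15.7% of all genes. Mcm6 rose 4.46-fold, Mcm3 and Mcm2 3.74-fold and 3.73-fold, Mcm4 2.98-fold, Mcm7 2.79-fold and Mcm5 2.72-fold. Mcm10, Mcm8 and Mcm9 rose 1.67-fold, 1.60-fold and 1.46-fold. The WT arrays are those of the first comparison, so the comparisons are not independent.

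Null signals were tightly grouped. Mcm6 read 9.83, 9.89 and 9.77 on null replicates 1 to 3, Mcm2 read 10.05, 10.19 and 10.02 and Mcm3 read 8.83, 9.02 and 8.81, with log2 changes of 2.16, 1.90 and 1.90 (SE 0.11 to 0.12, limma adjusted p = 7.0e-06 or lower). Mcm4 read 9.68, 9.63 and 9.53, Mcm7 read 9.96, 10.12 and 9.85 and Mcm5 read 8.90, 8.88 and 8.70, with log2 changes of 1.57, 1.48 and 1.44 (SE 0.10 to 0.14, limma adjusted p = 7.0e-05 or lower). Null replicate 3 was the lowest null array for all 6 replicative genes. These 6 kept their calls in all 19 alternatives.

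For the other 3 members the null arrays also cleared every WT array. Mcm10 read 7.09, 7.28 and 7.0 (log2 change 0.74, SE 0.15, limma adjusted p = 0.0051), Mcm8 read 7.0, 6.83 and 6.73 (0.68, SE 0.12, adjusted p = 0.0025) and Mcm9 read 6.57, 6.58 and 6.66 (0.54, SE 0.10, adjusted p = 0.0036). Their calls were lost where sex was taken into account. Against WT replicate 3 alone, the WT array with the null arrays' sex pattern, the changes were 0.61, 0.56 and 0.42 (limma adjusted p = 0.11, 0.082 and 0.10), and the lone array was taken to vary like the other groups. With the mean signal of the Y-linked genes added to the model they were 0.55, 0.51 and 0.38 (limma adjusted p = 0.16, 0.099 and 0.14). In this model 1580 of all 19938 genes were called, against 3678 in the main fit. Both settings rest on WT replicate 3, the only WT array with the null arrays' sex pattern. Under either setting 6 of 9 members stayed called, Mcm2 to Mcm7.

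The third comparison asked how far the ∆G allele goes towards complete loss. For all 9 members every null array read above every ∆G array, a pattern that 13.3% of all genes showed in this direction. By limma 7 of 9 were called higher in null than in ∆G, against 4.27% of all genes, with a median log2 difference of 0.49 over the members. Mcm6, Mcm5 and Mcm10 differed by 0.70, 0.67 and 0.56 (SE 0.12, 0.14 and 0.15, limma adjusted p = 0.0059, 0.015 and 0.039). Mcm2, Mcm8, Mcm7 and Mcm3 differed by 0.54, 0.49, 0.47 and 0.46 (SE 0.10 to 0.12, limma adjusted p = 0.013 to 0.026). Mcm4 and Mcm9 differed by 0.29 and 0.33, with 95% intervals of 0.04 to 0.54 and 0.11 to 0.55, and were not called (limma adjusted p = 0.15 and 0.070).

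These calls were less stable than those against WT. The number of called members was 1 without ∆G replicate 1 or without ∆G replicate 2, 2 without null replicate 1 and 3 without null replicate 2. It was 6 to 8 without any one of the other arrays. Calls over all 19938 genes also fell, from 1737 in the main fit to 762, 885, 847 and 1288 in the settings named. They were 1210 to 2408 without any one of the other arrays. With the Y-linked mean in the model 0 members were called, with 4 members at an unadjusted p under 0.05, and the log2 differences were 0.09 to 0.69. In that model 53 of all 19938 genes were called, against 1737 in the main fit, so the count of 0 alone says little about the members. The differences themselves fell for Mcm6, Mcm10, Mcm8 and Mcm9, to 0.29, 0.28, 0.24 and 0.09. With 1 array left out they had been at least 0.63, 0.45, 0.42 and 0.26. Those of Mcm2, Mcm3, Mcm4, Mcm5 and Mcm7 fell no lower than with 1 array left out. The part of sex in these differences was not tested.

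The order of the genotypes could be read array by array. In Mcm2 to Mcm7 every WT array lay below every ∆G array and every ∆G array below every null array, an order found in 1.93% of all genes. In Mcm8, Mcm9 and Mcm10 WT and ∆G did not differ beyond their spread, and null stood above both. By limma, the step from ∆G to null was not called for Mcm4 and Mcm9.

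The replicative genes and the other 3 were then compared as changes from the WT mean of each gene, since signals of different probe sets cannot be set against each other. The mean change of Mcm2 to Mcm7 was 1.15, 1.14 and 1.38 on ∆G replicates 1 to 3 and 1.75, 1.83 and 1.65 on the null arrays, around a spread of −0.19 to 0.22 in WT. Mcm10 changed by 0.02, −0.04 and 0.56 on the same ∆G arrays and by 0.71, 0.90 and 0.62 on the null arrays. The gap between the replicative mean and Mcm10 was therefore 1.04 ± 0.19 in ∆G and 1.00 ± 0.062 in null (SD, n = 3). It was 1.04 ± 0.10 and 1.07 ± 0.13 for Mcm8, and 1.01 ± 0.056 and 1.20 ± 0.13 for Mcm9. Every ∆G and null array showed a gap of at least 0.82, and no WT array a gap over 0.23. These gaps are described without a test because the members were chosen with results known. Mcm8, Mcm9 and Mcm10 had WT signals of 5.91 to 6.51, around the array medians, and the part of signal level in the smaller changes was not tested.

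The 7 measured markers of S phase to mitosis (Mki67, Top2a, Cdk1, Ccna2, Aurkb, Plk1 and Bub1) had a mean log2 signal of 8.64, 7.98 and 8.04 in WT, 8.28, 8.14 and 8.96 in ∆G and 9.41, 9.23 and 9.18 in null. The log2 of their summed linear signals was 10.8 to 11.5 in WT, 11.02 to 11.8 in ∆G and 12.02 to 12.3 in null. ∆G replicate 3 had the highest value of the non-null arrays, and it was also the highest ∆G array for all 9 MCM genes. On ∆G replicates 1 and 2 the markers lay within the WT range, and the mean change of Mcm2 to Mcm7 was 1.15 and 1.14, from 0.66 and 0.67 for Mcm5 to 1.5 for Mcm6 and 1.41 for Mcm3. None of the 7 markers was called in ∆G against WT in limma (0 at an unadjusted p under 0.05), where 0.602% of all genes were called higher. All 7 rose in null against WT, where 8.38% of all genes were called higher. Between null and ∆G 4 of 7 were called higher (7 at an unadjusted p under 0.05), where 4.27% of all genes were. The part of dividing cells in these changes was not tested.

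**Figure D4:**
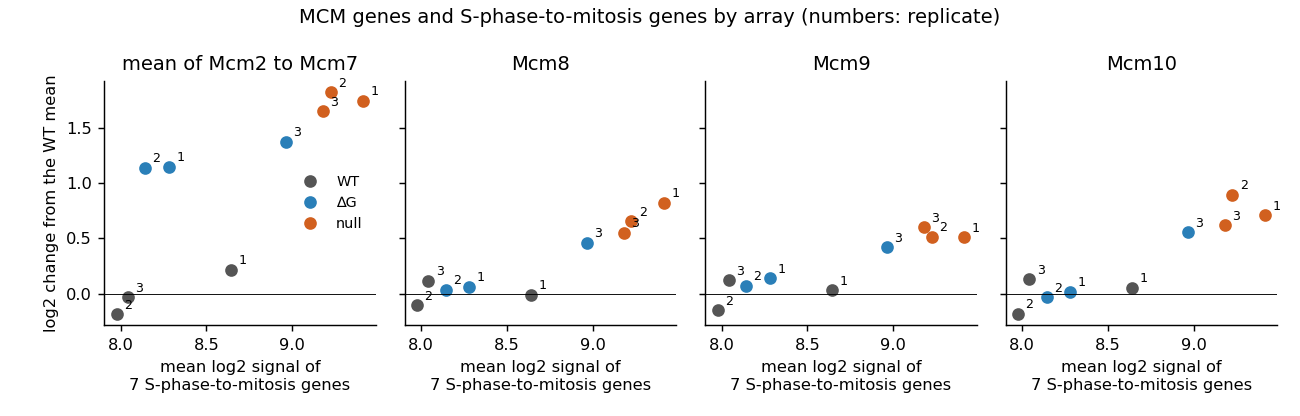
Log2 change from the WT mean of the replicative genes (mean of Mcm2 to Mcm7) and of Mcm8, Mcm9 and Mcm10, against the mean log2 signal of 7 S-phase-to-mitosis genes, for each of the 9 arrays (numbers give the replicate). ∆G replicates 1 and 2 lie at 1.15 and 1.14 for the replicative genes at marker levels of the WT range, and near 0 for Mcm10.

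Within a group, the replicative genes deviated from their means in the same direction on 6 of 9 arrays. All 6 were above their group mean on WT replicate 1, ∆G replicate 3 and null replicate 2, and all 6 were below it on WT replicate 2, ∆G replicate 2 and null replicate 3. On WT replicate 3 and ∆G replicate 1 Mcm6 alone was above its mean, and on null replicate 1 the genes split into 3 above and 3 below. Over the 9 arrays, which share their genotype groups, Pearson's r between pairs of replicative genes was 0.950 to 0.998 (15 pairs), and that of Mcm8, Mcm9 and Mcm10 with the replicative genes was 0.778 to 0.899, 0.826 to 0.917 and 0.745 to 0.882. These values describe 3 separated groups and carry no test.

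Genes whose products load, regulate, fire or work with the helicase were examined next. Of 30 measured partners, 11 rose and none fell in ∆G (median log2 change 0.38) and 26 rose and none fell in null (median 0.86), set against the 0.602% and 8.38% of all genes called higher. The licensing list of 10 genes holds loading factors, the Cdt1 inhibitor Gmnn (geminin) and the MCM-binding protein gene Mcmbp. In ∆G Cdt1 and Orc6 rose, 1.83-fold and 1.40-fold, and in null 7 of the 10 rose, Gmnn and Mcmbp among them (1.47-fold and 1.52-fold). Cdt1, which delivers the ring to origins, read 6.97, 6.70 and 6.71 in WT, 7.55, 7.58 and 7.87 in ∆G and 8.39, 8.64 and 8.34 in null. Cdc6, which loads the ring with it, read 5.99, 5.82 and 5.86 in WT, 5.82, 5.93 and 6.43 in ∆G and 6.92, 6.75 and 6.55 in null. Cdc6 in ∆G exceeded the WT arrays on replicate 3 alone (log2 change 0.17, limma adjusted p = 0.73), as did Mcm8 and Mcm10, and it rose 1.80-fold in null (adjusted p = 0.0021). Orc3, Orc4 and Orc5, subunits of the origin recognition complex, had log2 changes of −0.08 to 0.01 in both mutants and were not called.

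Of the 17 firing and fork genes, 8 rose in ∆G and all 17 in null. Tipin and Timeless, which form the fork protection complex, rose 2.08-fold and 1.68-fold in ∆G and 2.68-fold and 2.12-fold in null. Topbp1, a scaffold of origin firing, rose 1.71-fold and 2.04-fold, and Wdhd1, which tethers polymerase alpha to the helicase, 1.97-fold and 3.43-fold (limma adjusted p = 0.0026 or lower in ∆G and 2.5e-05 or lower in null for these 4). Of the helicase's own cofactors, Gins1 and Gins2 rose 1.61-fold and 1.56-fold in ∆G, while Gins3, Gins4 and Cdc45 had log2 changes of 0.34, 0.36 and 0.38 that were not called (limma adjusted p = 0.18, 0.082 and 0.15). Of the DDK kinase that phosphorylates the loaded ring, the catalytic Cdc7 rose 1.58-fold in ∆G and its activator Dbf4 was not called (log2 change 0.17, limma adjusted p = 0.76), and both rose in null. Donson was the remaining called gene, 1.43-fold higher in ∆G.

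Of the partners in recombination, Hrob, which loads the Mcm8 and Mcm9 complex, was not called in ∆G (log2 change 0.29, limma adjusted p = 0.29) and rose 1.64-fold in null (adjusted p = 0.0010). Brca2 rose in both, 1.66-fold and 2.37-fold (adjusted p = 0.0021 and 9.3e-06), and Mcmdc2, a meiotic relative of the MCM genes, in neither (log2 changes −0.02 and 0.05). The count of 11 partners in ∆G was 7 without any one of WT replicates 2 and 3, ∆G replicates 1 and 2 and null replicate 1. Calls over all genes were 162 in the main fit and 62 to 129 in those refits. Keeping only the WT arrays of the ∆G sex pattern is the same fit as leaving out WT replicate 3, and is no separate check. Between null and ∆G 19 of 30 partners were called higher and none lower, where 4.27% of all genes were called higher and 4.44% lower. The number of called partners was 7, 7, 9 and 9 without ∆G replicate 1, ∆G replicate 2, null replicate 1 or null replicate 2. Calls over all genes fell from 1737 to 762, 885, 847 and 1288 in the same refits.

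**Figure D5:**
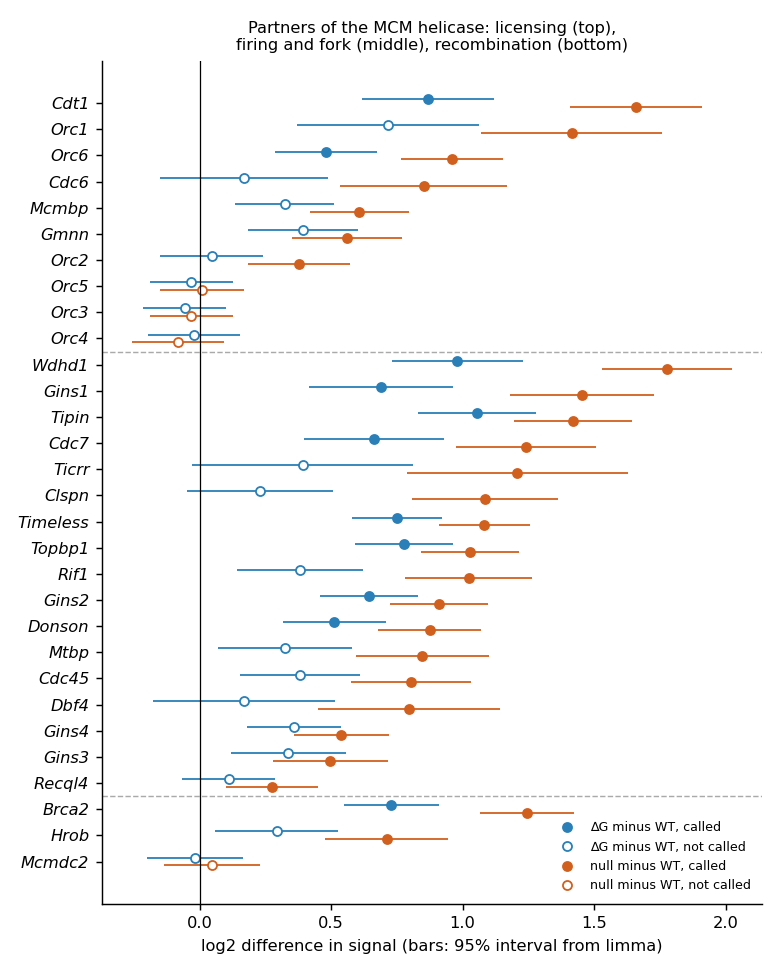
Log2 differences from WT, with 95% intervals, of 30 genes that load, fire or work with the helicase, in ∆G and null (filled where limma's adjusted p is under 0.05). In null 26 are filled and in ∆G 11, and all filled points lie above 0.

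The genes most like the replicative subunits over the 9 arrays were found by Pearson's r with the mean z-score of Mcm2 to Mcm7, among 17061 genes. They were Timeless (0.997), the maintenance DNA methyltransferase Dnmt1 (0.997), Tipin (0.995), the chromatin remodeller Hells (0.994), Rpa1, of the single-strand binding protein (0.993), Rbl1, which encodes the RB relative p107 (0.993), Fignl1 (0.993), the histone chaperone subunit Chaf1b (0.992), the cyclin Ccne1 (0.991) and the checkpoint kinase Chek1 (0.991). All 10 were called in both mutants against WT, with log2 changes of 0.67 to 1.27 in ∆G and 0.93 to 1.96 in null. Of all genes, 0.602% and 8.38% were called higher. The calls follow from choosing genes by likeness to a pattern that separates the groups, and are no separate support. An r over 0.9 was reached by 370 of the 17061 genes, so a high value is not particular to these 10. The genes most like the other members differed from these. They were Cep57, Prps1 and Tusc1 for Mcm8 (r = 0.986, 0.985 and 0.981), Poc1b, B4galnt4 and Shmt1 for Mcm9 (0.989, 0.978 and 0.975) and Acss2, Pmvk and Hmces for Mcm10 (0.987, 0.987 and 0.982). None of these 9 was called in ∆G, where their log2 changes were 0.09 to 0.24, and 8 of 9 rose in null, all but B4galnt4. This too follows from their choice, by likeness to members called against WT only in null.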

How the data were processed

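RNA from 9 cultures was measured on Affymetrix Mouse Gene 1.0 ST arrays. The deposited table holds log2 values that the authors made with RMA in BRB-ArrayTools, per the series text and the labels; RMA and affy also stand in the submitters' processing notes. Software versions and the build behind the array annotation are not given in these sources, and whether all arrays were processed together is not stated. No further scaling was applied. Of 35511 probe sets with values, 21789 carried exactly 1 gene symbol in the platform annotation and gave 19938 genes, the brightest probe set standing for a gene. One limma fit (limma 3.58.1, R 4.3.3) over all 9 arrays with a mean per genotype, default eBayes and 6 residual degrees of freedom gave every log2 change, SE, 95% interval and p, with Benjamini-Hochberg adjustment over all 19938 genes and a threshold of 0.05. The fit was tested on simulated data. The number of arrays limits the precision, and no detection calls were used. The members, the partner and marker lists, the motif letters and the rule for named genes were chosen with earlier results of these data known. Named genes are the members, the called partners (with others of the list for contrast, chosen after their values were seen), the 10 genes most like Mcm2 to Mcm7 and 3 each for Mcm8, Mcm9 and Mcm10 by Pearson's r (predicted genes, clone names, microRNAs and receptors of smell left out), neighbours with a start under 1000 bases away on the other strand, and Rb1, Xist and Eif2s3y. The listed Ccnb1 and Ddx3y had no value under the 1-symbol rule. A comparison of the proteins was planned and not made, and protein sequences are not used here. Alternatives left out each array, used the replicate number as a block, other variance models, weights, scalings, filters and probe set rules, and took sex into account.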

Additional observations from a re-analysis of the deposited data

How the results depend on the processing

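Over 504 recomputed log2 changes of single members, 451 kept their direction and side of the threshold, 48 were no longer called, 4 became called and 1 changed sign: Mcm10 in ∆G, at −0.0083 without ∆G replicate 3, the low end of a range that reached 0.29 without ∆G replicate 2. Some alternatives could not move a log2 change, since each member has 1 probe set and an array outside the 2 compared groups enters only the spread. Leaving out 1 array at a time gave 5 to 6 called members in ∆G against WT, 9 in null against WT and 1 to 8 in null against ∆G, and 7 to 11, 25 to 26 and 7 to 19 called partners. Calls over all genes in these refits were 62 to 252, 2546 to 3895 and 762 to 2408, against 162, 3678 and 1737 in the main fit. With the mean signal of the Y-linked genes added to the model, null against ∆G had 0 called members and 0 called partners in limma (4 and 13 at an unadjusted p under 0.05). Only 53 of all 19938 genes were called there, against 1737 in the main fit. In this model ∆G against WT had 7 called partners, as it had against WT arrays of the same sex pattern. The latter is the same fit as leaving out WT replicate 3 and is counted under both names above. A comparison within the same sex pattern is not possible between null and ∆G, which share none. The gap between the mean change of Mcm2 to Mcm7 and that of Mcm8, Mcm9 and Mcm10 ran from 0.96 to 1.15, 0.94 to 1.10 and 0.96 to 1.15 in ∆G and from 0.99 to 1.18, 1.13 to 1.29 and 0.92 to 1.08 in null with 1 array left out. The causes of these shifts were not tested. Whether the replicate numbers pair the samples was not settled, which leaves the littermate pairing unknown. Deviations of same-numbered arrays correlated at −0.084 to 0.27, over 0.1 in 4 of 9 pairs. The best match in another group, out of 3 arrays each time, had the same number in 11 of 18 cases. That is more often than 1 in 3, but the cases overlap and were not tested. With the number as a replicate block, 6, 9 and 8 members were called in ∆G against WT, null against WT and null against ∆G, Mcm9 being added in the last (adjusted p = 0.029), and 11, 26 and 17 partners. Calls over all genes also rose with the block, to 211, 3777 and 1977, against 162, 3678 and 1737 in the main fit.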

Other observations

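The Mcm7 gene holds the microRNA genes Mir106b, Mir93 and Mir25, all on its strand, and its start lies 138 bases from that of Ap4m1, a subunit gene of the AP-4 adaptor complex on the other strand. The microRNAs were looked up after the values of Mcm7 had been seen. Their mature arms are shown with the seed (bases 2 to 8) in capitals, from RefSeq, GRCm38.p6, minus strand of chromosome 5, since the first and the second share it.
mmu-miR-106b-5p (chr5:138165787-138165807): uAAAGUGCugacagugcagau
mmu-miR-93-5p (chr5:138165574-138165596): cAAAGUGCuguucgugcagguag
mmu-miR-25-3p (chr5:138165332-138165353): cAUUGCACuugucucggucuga
The probe sets annotated to these microRNA genes moved less than Mcm7, whose log2 change was 1.01 in ∆G and 1.48 in null. Mir106b read 5.70, 5.68 and 5.51 in WT, 5.88, 6.14 and 6.14 in ∆G and 6.06, 6.11 and 6.18 in null. It was higher than WT by 0.43 in ∆G (limma adjusted p = 0.057) and rose by 0.49 in null (adjusted p = 0.0032). Mir93 and Mir25 had log2 changes of 0.30 and 0.25 in ∆G (adjusted p = 0.20 and 0.46) and rose by 0.36 and 0.51 in null (adjusted p = 0.018 and 0.013). Only Mir25 separated null from ∆G without overlap (difference 0.26, adjusted p = 0.22). A probe set inside a host gene cannot tell the microRNA precursor from unspliced host RNA. Ap4m1 read 8.07, 8.12 and 8.37 in WT, 8.57, 8.36 and 8.41 in ∆G and 8.53, 8.46 and 8.41 in null. Its log2 changes of 0.26 and 0.28 were not called (limma adjusted p = 0.27 and 0.055), and its null and ∆G arrays overlapped.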
